A study of Mus musculus with 20 samples.

Results

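Pdgfra, Kit and Kdr are neighbouring genes for receptor tyrosine kinases on mouse chromosome 5, and the regions bound by GATA6 around them were followed by ATAC-seq while GATA6 drove ES cells towards primitive endoderm (PrE). The regions were all those of a table of 42403 GATA6-bound regions whose midpoint lay within 100 kb of the GENCODE vM21 gene start (mm10) of Pdgfra, Kit or Kdr. There were 32 such regions, of which 17 lay near Pdgfra, 11 near Kit and 4 near Kdr. The gene starts are 422.6 kb (Pdgfra to Kit) and 403.5 kb (Kit to Kdr) apart, so that no region counted for more than 1 gene. The rule used position only.

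ATAC-seq, in which the Tn5 transposase cuts exposed DNA, was carried out on 20 samples. KH2 ES cells (C57BL/6 x 129/Sv) with a doxycycline-inducible gata6 cassette gave 17 samples: 3 untreated (d0), 3 each titled 8 h, 16 h, day 1 and day 2 of 1 µg/mL doxycycline, and 2 of day 4. The titles were used, although up to day 2 the treatment labels give longer doxycycline exposures than the titles (16, 24, 48 and 72 h, in that order). For day 4 the label of 96 h equals the titled time. XEN cells, an extraembryonic endoderm line (X10, CD1, wild type) that received no doxycycline and was grown without LIF, gave 3 samples. All cells were grown on inactivated feeder fibroblasts, which were removed by adsorption before transposition. GATA6 came from a transgene in cells of 1 parental line, and XEN cells differ from them in line, strain and medium, so these differences cannot be told apart from the difference in cell type.

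Accessibility is given in RPM, the reads in a region scaled to the size of the library and not divided by the width of the region. Every group is represented by the authors' average. Whole reads of 16 single libraries were recovered from these averages (3 libraries each at 8 h, 16 h, day 1 and day 2, and 2 each at day 4 and in XEN cells) at 24782 regions, among them all 32 described here. The d0 average could not be resolved, so changes with a test are against 8 h, and d0 is given as an average without an error. Libraries held 181 M to 288 M reads, apart from XEN library 2 with 43.3 M, and their numbers within a group are arbitrary. The summed RPM of the recovered regions varied within groups, most of all at 16 h, from 2990 to 5938 RPM. By the methods of the study the samples of a group were separate cell cultures of the same lines, which the labels do not state. The p-values of the main fit rest on a spread between cultures that is shared by regions of like level. They do not measure the spread of each region alone, which was used in an alternative fit.

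PDGFRA binds platelet-derived growth factors and is a surface marker of PrE in the blastocyst and of XEN cells. KIT is the receptor of stem cell factor and is known from germ cells, blood progenitors and melanocytes. KDR, also called VEGF receptor 2, is known from endothelium and its mesodermal precursors. GATA6 recognises GATA letters in DNA and starts PrE differentiation, in which SOX17, an HMG-box factor, acts with it.

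By the time course of GATA6 binding, the authors had classed 10 of the 32 regions as Early&Constant, 18 as Late and 4 as Transient. Late regions made up 56.2% of them against 33.6% of all regions, and Transient regions 12.5% against 38.4%. The Transient regions were 1 of 17 near Pdgfra, 3 of 11 near Kit and 0 of 4 near Kdr. At d0 25 regions (78.1%) were classed as closed, against 61.3% of all regions, and 18 (56.2%) carried the marks of facultative heterochromatin in ES cells, against 22.3%. SOX17 had a peak at 19 of the 32 regions (59.4%, against 44.5% of all regions): 9 of 10 in the Early&Constant class, 10 of 18 in the Late class and 0 of 4 in the Transient class. Pluripotency TFs (PTF) occupied 7 regions at d0, and 8 regions were of the ectopic PTF class, in which these factors appear only after induction.

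The regions were 191 to 2884 bp wide. The widest lay 8.0 kb upstream of the Pdgfra start, inside an intron of the long non-coding gene Gm19583, which overlaps 5 of the regions, 33.8 to 5.3 kb upstream of Pdgfra. Only 1 region held the start of a protein-coding gene, that of Pdgfra. For 5 regions at the far upstream end the nearest protein-coding start was that of Gsx2, and for 2 upstream of Kdr it was that of Srd5a3, so that position alone does not assign these to the receptor genes.

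A match to the GATA6 motif by the deposited FIMO scan was present in 27 of the 32 regions (84.4%, against 89.7% of all regions), with a median best score of 10.9 against 10.2. The letters around the GATA6 summit are shown for 8 regions that are described singly further on. Each line is 200 bases of mm10 (GRCm38), plus strand, 5′ to 3′, read from RefSeq's assembly. Capitals mark the GATA core GATAA and the SOX core ACAAT on either strand (as TTATC and ATTGT).
Pdgfra 8.0 kb upstream (chr5:75143704-75143903): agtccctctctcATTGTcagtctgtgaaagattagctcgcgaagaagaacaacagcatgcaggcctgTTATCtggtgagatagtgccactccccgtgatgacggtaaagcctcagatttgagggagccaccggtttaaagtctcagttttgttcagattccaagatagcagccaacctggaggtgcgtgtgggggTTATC
Pdgfra 8.4 kb downstream (chr5:75160542-75160741): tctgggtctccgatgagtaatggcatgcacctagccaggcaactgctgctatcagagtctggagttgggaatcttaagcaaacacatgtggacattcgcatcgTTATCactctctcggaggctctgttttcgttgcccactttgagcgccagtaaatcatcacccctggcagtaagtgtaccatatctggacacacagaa
Pdgfra 88.8 kb upstream (chr5:75063241-75063440): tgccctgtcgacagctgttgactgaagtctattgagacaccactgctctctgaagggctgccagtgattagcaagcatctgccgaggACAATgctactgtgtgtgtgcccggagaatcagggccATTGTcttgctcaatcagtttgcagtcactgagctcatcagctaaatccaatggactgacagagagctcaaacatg
Kit 5.0 kb downstream (chr5:75579768-75579967): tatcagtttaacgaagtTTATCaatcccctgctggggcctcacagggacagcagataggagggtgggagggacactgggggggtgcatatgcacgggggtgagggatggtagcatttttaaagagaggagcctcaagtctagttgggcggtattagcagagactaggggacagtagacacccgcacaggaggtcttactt
Kit 65.8 kb downstream (chr5:75640627-75640826): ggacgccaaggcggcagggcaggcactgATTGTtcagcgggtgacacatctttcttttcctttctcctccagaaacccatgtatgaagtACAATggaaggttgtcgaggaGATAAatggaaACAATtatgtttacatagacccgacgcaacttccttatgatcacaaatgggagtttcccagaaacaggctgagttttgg
Kit 10.8 kb upstream (chr5:75563911-75564110): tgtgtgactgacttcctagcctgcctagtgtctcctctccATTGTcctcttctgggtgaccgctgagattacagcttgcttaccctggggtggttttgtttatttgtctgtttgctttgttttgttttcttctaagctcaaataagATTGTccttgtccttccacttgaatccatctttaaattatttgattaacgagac
Kit 37.0 kb upstream (chr5:75537813-75538012): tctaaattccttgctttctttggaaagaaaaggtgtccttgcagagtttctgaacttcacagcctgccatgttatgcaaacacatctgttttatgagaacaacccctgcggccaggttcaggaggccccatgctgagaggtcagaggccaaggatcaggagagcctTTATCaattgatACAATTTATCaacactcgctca
Kdr 6.6 kb downstream (chr5:75971793-75971992): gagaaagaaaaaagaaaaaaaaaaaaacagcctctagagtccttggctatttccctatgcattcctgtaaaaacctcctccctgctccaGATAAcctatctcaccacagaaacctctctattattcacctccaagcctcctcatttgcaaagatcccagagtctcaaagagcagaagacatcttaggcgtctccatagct
In windows of this length 24 of the 32 regions (75%) held the GATA core and 17 (53.1%) the SOX core, against 75.5% and 46.5% of all 42403 regions. All 4 regions near Kdr held the GATA core, as did 9 of 11 near Kit and 11 of 17 near Pdgfra. The windows 88.8 kb upstream of Pdgfra and 10.8 kb upstream of Kit, both of Late regions, held no GATA core and 2 SOX cores each. Such a match describes the letters, and a window without one says nothing about binding.

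Accessibility was first summed over the regions of each gene. Near Pdgfra the d0 sum was 3.08 RPM. The 8 h libraries averaged 2.83 ± 0.616 RPM (SD, n = 3), the 16 h libraries 4.64 ± 1.51 (n = 3), the day 1 libraries 6.19 ± 1.93 (n = 3), the day 2 libraries 11.1 ± 2.27 (n = 3), the day 4 libraries 8.58 ± 0.187 (n = 2) and the XEN libraries 6.26 ± 0.187 (n = 2). From day 1 on, every library lay above every 8 h library, whereas 16 h overlapped with 8 h, and day 4 overlapped with day 2. The XEN libraries lay below those of day 4. Relative to 8 h the sum was 2.19-fold (day 1), 3.94-fold (day 2), 3.03-fold (day 4) and 2.21-fold (XEN cells).

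Near Kit the d0 sum was 1.58 RPM. With the same numbers of libraries, the 8 h libraries averaged 1.63 ± 0.514 RPM, the 16 h libraries 1.73 ± 0.580, the day 1 libraries 2.15 ± 0.664, the day 2 libraries 3.50 ± 0.490, the day 4 libraries 3.27 ± 0.0908 and the XEN libraries 2.45 ± 0.190. It was 2.15-fold the 8 h value at day 2 and 2.01-fold at day 4, and day 1 overlapped with 8 h. Near Kdr the d0 sum was 0.149 RPM, and the libraries averaged 0.183 ± 0.0930 RPM (8 h), 0.167 ± 0.0423 (16 h), 0.267 ± 0.0947 (day 1), 0.656 ± 0.117 (day 2), 0.601 ± 0.00316 (day 4) and 0.449 ± 0.116 (XEN cells). The libraries of day 2, day 4 and XEN cells lay above those of 8 h, by 3.57-fold, 3.27-fold and 2.45-fold. A single region, 6.6 kb downstream of the Kdr start, held 80.2% of the day 2 sum of Kdr. No test was made on these sums.

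**Figure D1:**
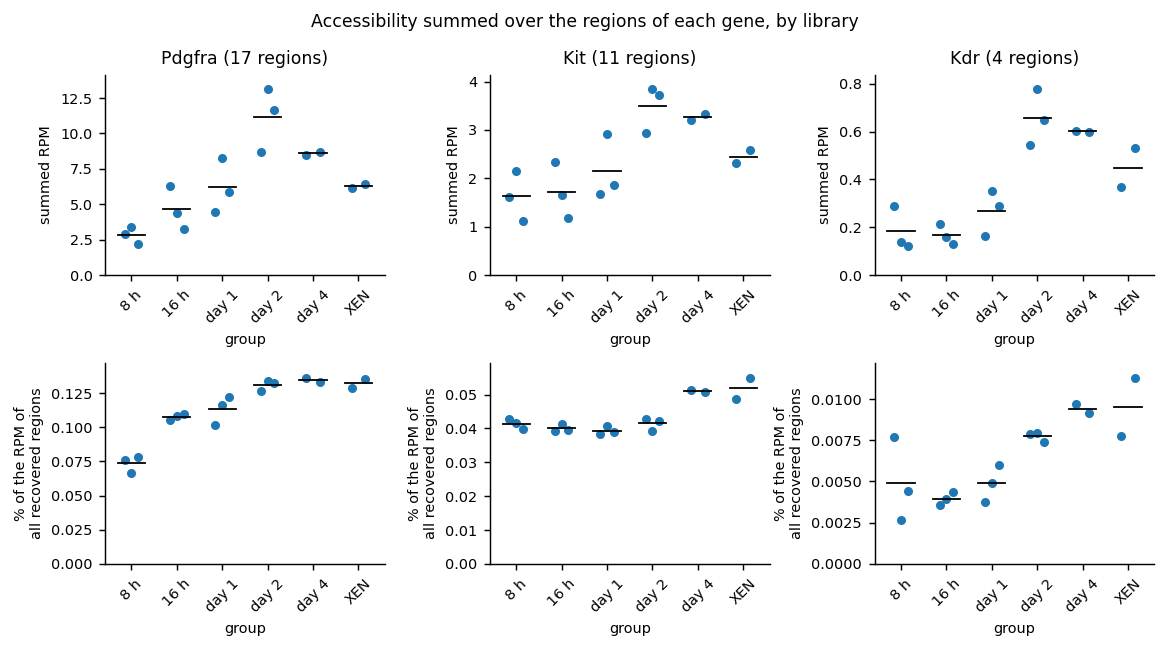
Sum of RPM over the regions of each gene (upper row) and the same sum as a percentage of the RPM of all 24782 recovered regions (lower row), by group. Points are libraries (3 each at 8 h, 16 h, day 1 and day 2, 2 each at day 4 and in XEN cells) and lines are means. The Pdgfra share lies higher in every 16 h library than in any 8 h library, while the mean Kit share is 0.0414% at 8 h, 0.0415% at day 2 and 0.0512% at day 4.

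The median change of all recovered regions against 8 h was 0.67 at day 2 and 0.51 at day 4 on the log2 scale, so the sums were also taken as a share of the RPM of all recovered regions in the same library. The Pdgfra share averaged 0.0737% in the 8 h libraries (0.0665% to 0.0784%), 0.108% in those of 16 h (0.105% to 0.110%), 0.113% in those of day 1, 0.131% in those of day 2 (0.126% to 0.134%), 0.135% in those of day 4 and 0.132% in those of XEN cells. The libraries of 16 h and 8 h, which overlapped in RPM, did not overlap in this share. The Kit share averaged between 0.0394% (day 1) and 0.0415% (day 2) in the groups up to day 2, whose libraries overlapped. It was 0.0512% in the day 4 libraries (0.0509% to 0.0515%) and 0.0518% in XEN cells (0.0488% to 0.0549%), all above every earlier library. The Kdr share was 0.00491% over the 8 h libraries (0.00265% to 0.00767%) and 0.00774%, 0.00942% and 0.00950% over those of day 2, day 4 and XEN cells. The day 2 libraries (0.00738% to 0.00795%) overlapped with those of 8 h, and those of day 4 and of XEN cells lay above them.

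**Figure D2:**
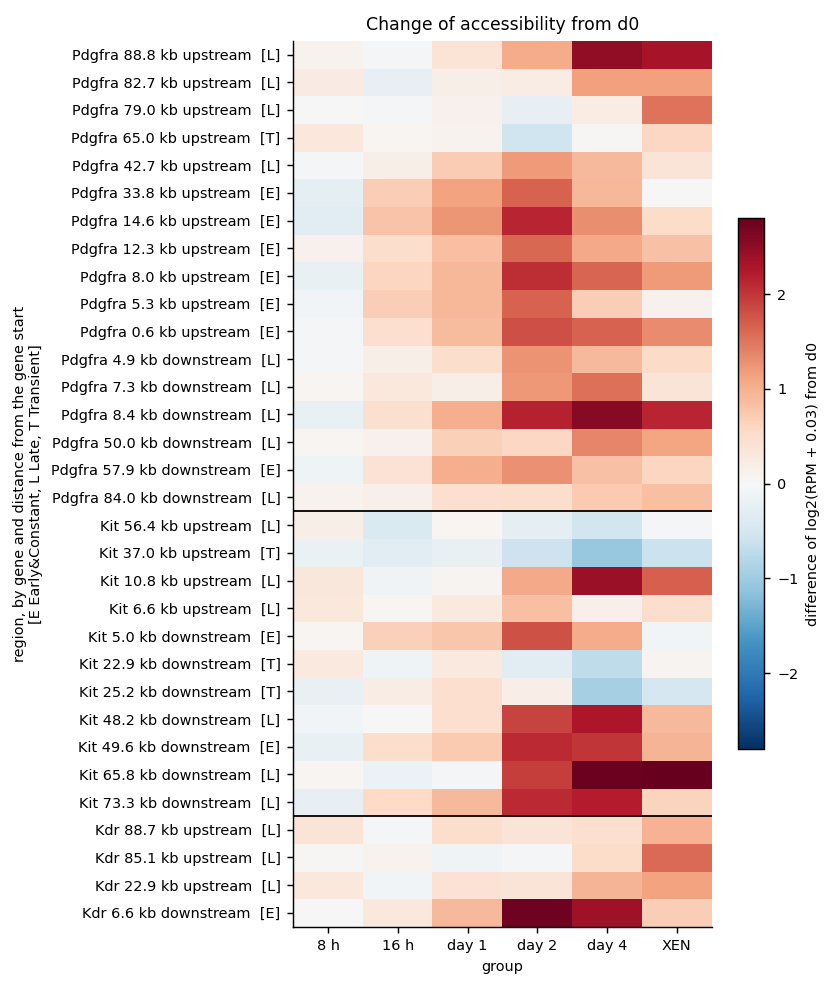
Change of each of the 32 regions from d0 in the authors' averages, as the difference of log2(RPM + 0.03), by group (columns) and by gene and distance from the gene start (rows, with the class of GATA6 binding). Red is higher and blue is lower than d0. The Early&Constant regions upstream of Pdgfra are reddest at day 2, the regions 88.8 kb upstream of Pdgfra and 10.8 kb upstream of Kit at day 4, and the Transient regions of Kit are blue at day 4.

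Between averages, the median change of the 32 regions from d0, in log2(RPM + 0.03), was 0.48 (day 1), 1.21 (day 2), 1.00 (day 4) and 0.76 (XEN cells), against 0.31, 0.69, 0.52 and 0.40 over all regions. On this scale changes of regions with low values are understated. At day 2 19 of the 32 regions were more than 2-fold above d0 (59.4%, against 36.8% of all regions), at day 4 16 (50%, against 31%) and in XEN cells 11 (34.4%, against 27.7%). The only region more than 2-fold below d0 was the Transient region 37.0 kb upstream of Kit, at day 4. Values were highest at day 2 in 13 regions, at day 4 in 8 and in XEN cells in 7. The sum over all 42403 regions was also highest at day 2 (14053 RPM, against 10635 at day 4 and 8199 in XEN cells).

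Over single libraries, limma at an adjusted p under 0.05 called 0 of the 32 regions at 16 h against 8 h (0.00807% of all recovered regions were called in either direction). At an unadjusted p under 0.05 there were 5, all higher (4.49% of all recovered regions were higher at that threshold). At day 1 6 regions rose (18.8%, against 5.67% of all recovered regions), 5 near Pdgfra and 1 near Kit, and 0 fell (against 0.0282%), with none lower at an unadjusted p under 0.05. With weights for single libraries the number was 13 (3729 of all 24782 recovered regions, against 1405 without weights). None of the 6 calls remained with the spread of each region taken on its own, or without 8 h library 3, or without day 1 library 2. In these fits 18, 174 and 143 of all 24782 recovered regions were called higher, in that order. At day 2 19 regions rose (59.4%, against 47.8%) and 1 fell (against 3.05%). At day 4 21 rose (65.6%, against 37.1%) and 2 fell (6.25%, against 8.76%). Without 8 h library 3 the number that rose at day 4 was 17 (7128 of all 24782 recovered regions). A fit without either day 4 library leaves 1 library at day 4. In XEN cells 14 rose (43.8%, against 30.3%) and 0 fell (against 9.92%), also at an unadjusted p under 0.05. Without 8 h library 3 the number that rose in XEN cells was 9 (5743 of all 24782 recovered regions). Of the regions that rose at day 2 or day 4, 18 did so at both times. How many of all recovered regions rose at both times was not counted.

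With each library centred on its median, 14 of the 32 regions were higher and 9 lower at day 2 (24.7% and 28.8% of all recovered regions), and 14 were higher and 4 lower at day 4 (24.9% each). In XEN cells 9 were higher and 4 lower under this scaling (20% and 27.8%). Higher calls at day 2 held under this scaling, under quantile normalisation and with each region's own spread at 12 of the 19 regions: 6 near Pdgfra, 5 near Kit and 1 near Kdr. At day 4 the same was so for 14 of 21. How many of all recovered regions met these conditions together was not counted. By quantiles alone 13 of the 32 were higher at day 2 (5511 of all 24782 recovered regions) and 14 at day 4 (6337 of 24782). With each region's own spread alone 18 were higher at day 2 (10601 of 24782) and 16 at day 4 (7969 of 24782).

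Counts by binding class are set beside those of the same class in the whole table. All 10 Early&Constant regions rose at day 2, as did 75.2% of all recovered regions of that class, 9 rose at day 4 (52.4%) and 3 in XEN cells (29.5%). Of the 18 Late regions 9 rose at day 2 (50.1% of all Late regions), 12 at day 4 (59.6%) and 11 in XEN cells (62.5%). None of the 4 Transient regions rose at day 2, day 4 or in XEN cells (26.6%, 7.6% and 3.9% of all Transient regions). Of the 4, 1 fell at day 2 (7.1% of all Transient regions) and 2 fell at day 4 (20.9%). All 8 ectopic PTF regions rose at day 2 and at day 4, as did 86.5% and 67.3% of all recovered regions of that class. Among the 19 regions with SOX17 15 rose at day 2 (72.2% of all recovered regions with SOX17) and 16 at day 4 (62.4%). Among the 13 without it 4 rose at day 2 (28.0% of all recovered regions without SOX17) and 5 at day 4 (16.5%).

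**Figure D3:**
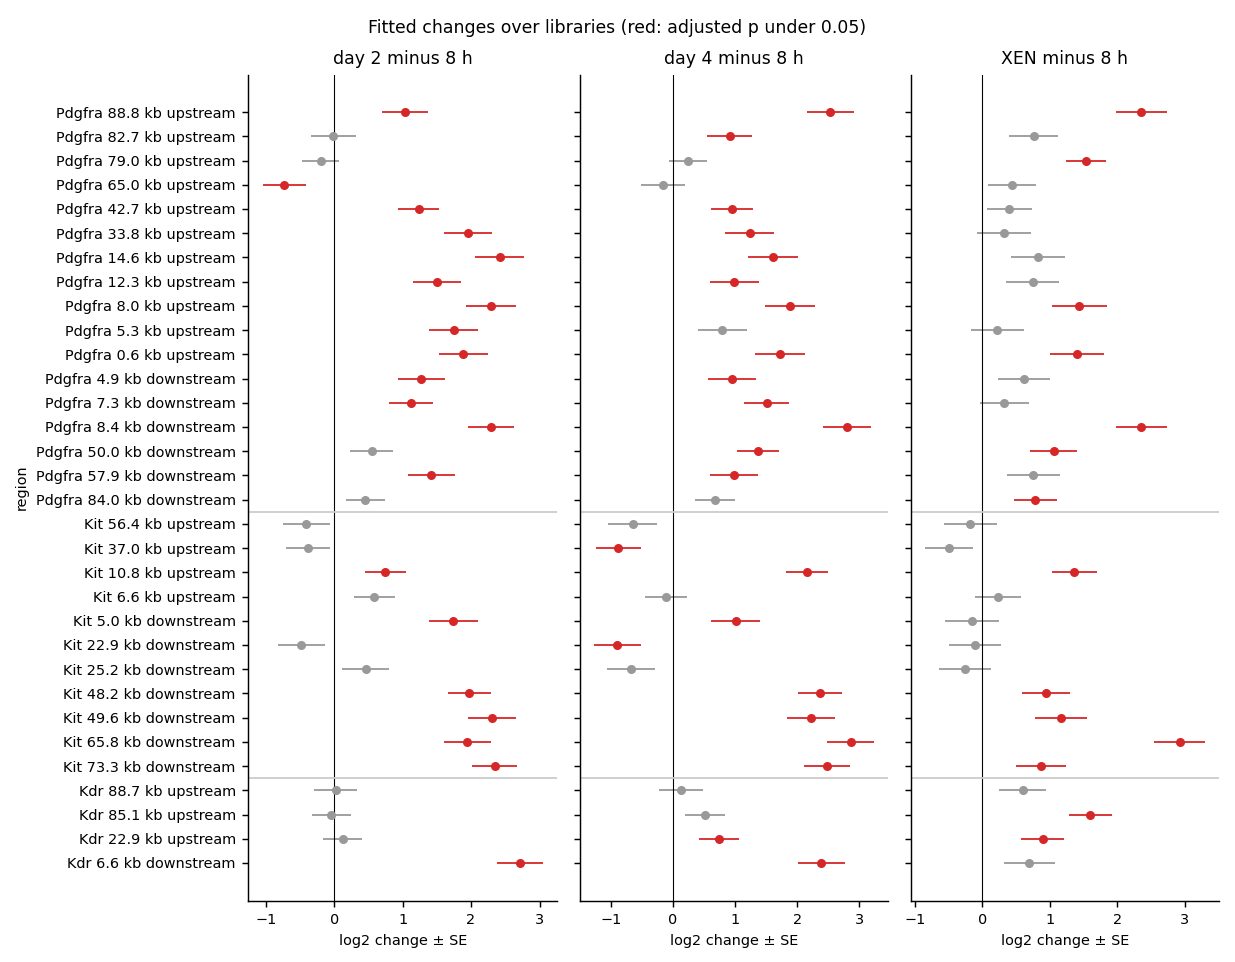
Fitted change of each region against 8 h at day 2, day 4 and in XEN cells (limma, log2 scale), with its standard error. Red points passed an adjusted p of 0.05. At day 2 19 regions lie to the right of 0 in red and 1 to the left, at day 4 21 and 2, and in XEN cells 14 and 0.

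Pdgfra had the most regions, and was the only gene with more than 1 region called at day 1. The promoter region (chr5:75150851-75152483, 1632 bp, Early&Constant, ectopic PTF, SOX17-bound) spans the gene start and reaches into the 5′ UTR, and was classed as closed at d0 with the marks of a poised enhancer. It was at 0.314 RPM at d0, and its libraries were at 0.352, 0.390 and 0.180 RPM at 8 h, 0.582, 0.450 and 0.308 at 16 h, 0.425, 0.813 and 0.585 at day 1, 0.940, 1.40 and 1.20 at day 2, 0.945 and 1.14 at day 4 and 0.846 and 0.808 in XEN cells. From day 1 on no library overlapped with 8 h. The change from 8 h was 1.89 ± 0.36 at day 2 (log2, SE, limma adjusted p = 8.7e-07), 1.73 ± 0.40 at day 4 (adjusted p = 9.0e-05) and 1.41 ± 0.40 in XEN cells (adjusted p = 0.0019).

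The region 8.0 kb upstream (chr5:75142815-75145699, Early&Constant, PTF-bound at d0, SOX17-bound) held the highest RPM of all 32 in every group, and is also the widest. Its libraries were at 0.506, 0.780 and 0.465 RPM at 8 h, 1.48, 0.958 and 0.742 at 16 h, 1.01, 1.75 and 1.23 at day 1, 2.17, 3.55 and 3.18 at day 2, 2.19 and 2.20 at day 4 and 1.49 and 1.71 in XEN cells. The 16 h libraries overlapped with those of 8 h, and all later ones lay above. The change was 2.29 ± 0.36 at day 2 (limma adjusted p = 2.8e-09), 1.89 ± 0.40 at day 4 (adjusted p = 2.2e-05) and 1.44 ± 0.40 in XEN cells (adjusted p = 0.0017). At day 1 it was 1.15 (adjusted p = 0.034), a call lost without any of 8 libraries, with an adjusted p of 0.30 without day 1 library 2. Per kb of region it was at 0.236 RPM at d0 and 0.760 RPM at day 4, below the 1.10 RPM per kb at day 4 of the region 8.4 kb downstream.

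The 5 regions within Gm19583 all rose at day 2, by up to 2.42 on the log2 scale, 4 rose at day 4 and 1, that 8.0 kb upstream, in XEN cells. In the Early&Constant class, to which all 5 belong, 75.2%, 52.4% and 29.5% of all recovered regions rose in these groups. All 5 are closed at d0 and SOX17-bound, with 2 to 3 GATA cores in 4 of the 200-base windows. From day 2 to day 4 their changes lay between -0.95 and -0.40, with no call. With libraries centred on their median, 1 of the 5, that 5.3 kb upstream, was lower at day 4 than at day 2 (log2 change -0.69, adjusted p = 0.032). This region and the changes at 16 h that follow were singled out after their values were seen. Under the same centring, the regions 33.8 and 14.6 kb upstream were higher already at 16 h (0.89, adjusted p = 0.018, and 0.97, adjusted p = 0.0084), which are the only calls among the 32 at that time and scaling. Without centring they differed from 8 h by 0.98 and 1.06 (adjusted p = 0.54 and 0.50).

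Within the gene, the Late region 8.4 kb downstream (chr5:75160389-75160926, intronic, ectopic PTF, SOX17-bound) showed the largest gain of the Pdgfra locus from d0 to day 4 on the scale of log2(RPM + 0.03). It was at 0.0754 RPM at d0, and its libraries were at 0.0844, 0.0376 and 0.0617 RPM at 8 h, 0.157, 0.191 and 0.204 at day 1, 0.223, 0.648 and 0.455 at day 2, 0.593 in each at day 4 and 0.378 and 0.485 in XEN cells. All libraries from day 1 on lay above those of 8 h. It rose by 2.29 ± 0.34 at day 2 (limma adjusted p = 3.8e-10), 2.80 ± 0.38 at day 4 (adjusted p = 2.2e-11) and 2.36 ± 0.38 in XEN cells (adjusted p = 2.3e-08). The day 1 call (1.26, adjusted p = 0.012) was lost without any of 4 libraries, with an adjusted p of up to 0.079.

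At the far end, the region 88.8 kb upstream (chr5:75063134-75063764, intergenic, Late, SOX17-bound, no PTF, nearest protein-coding start Gsx2) was higher only later. It was at 0.117, 0.0705 and 0.0190 RPM at 8 h, 0.0918, 0.195 and 0.199 at day 2, 0.528 and 0.454 at day 4 and 0.402 and 0.462 in XEN cells. The day 2 libraries overlapped with those of 8 h, and those of day 4 and of XEN cells lay above all earlier ones. The change from 8 h was 1.04 ± 0.34 at day 2 (limma adjusted p = 0.0054, and 0.17 without 8 h library 3, which alone lay at 0.0190), 2.53 ± 0.37 at day 4 (adjusted p = 5.9e-10) and 2.36 ± 0.37 in XEN cells (adjusted p = 1.1e-08). From day 2 to day 4 it rose by 1.49 ± 0.37 (adjusted p = 0.0032). That call was lost without either day 4 library (adjusted p = 0.11 and 0.056) and with each region's own spread (adjusted p = 0.084). On Oct4 knockdown the authors classed its GATA6 binding as increased.

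No region near Pdgfra was lower at day 4 than at d0 in the averages. Only the Transient region, far upstream of the gene, fell at day 2, by 0.73 on the log2 scale (limma adjusted p = 0.043), a call lost with each region's own spread (adjusted p = 0.12) and without 8 h library 1 (-0.29, adjusted p = 0.52). The region 79.0 kb upstream, chosen after its values were seen, was between 0.00874 and 0.0301 RPM in every library of the ES cell series and at 0.121 and 0.0923 RPM in XEN cells (change from day 4 1.29 ± 0.33, adjusted p = 0.0018, and 0.052 without day 4 library 2). Near the limit of the window, the region 88.8 kb upstream lay just inside and a Transient region 101.9 kb downstream just outside. In the averages the latter had 0.0624 RPM (d0), 0.211 RPM (day 2) and 0.137 RPM (day 4).

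**Figure D4:**
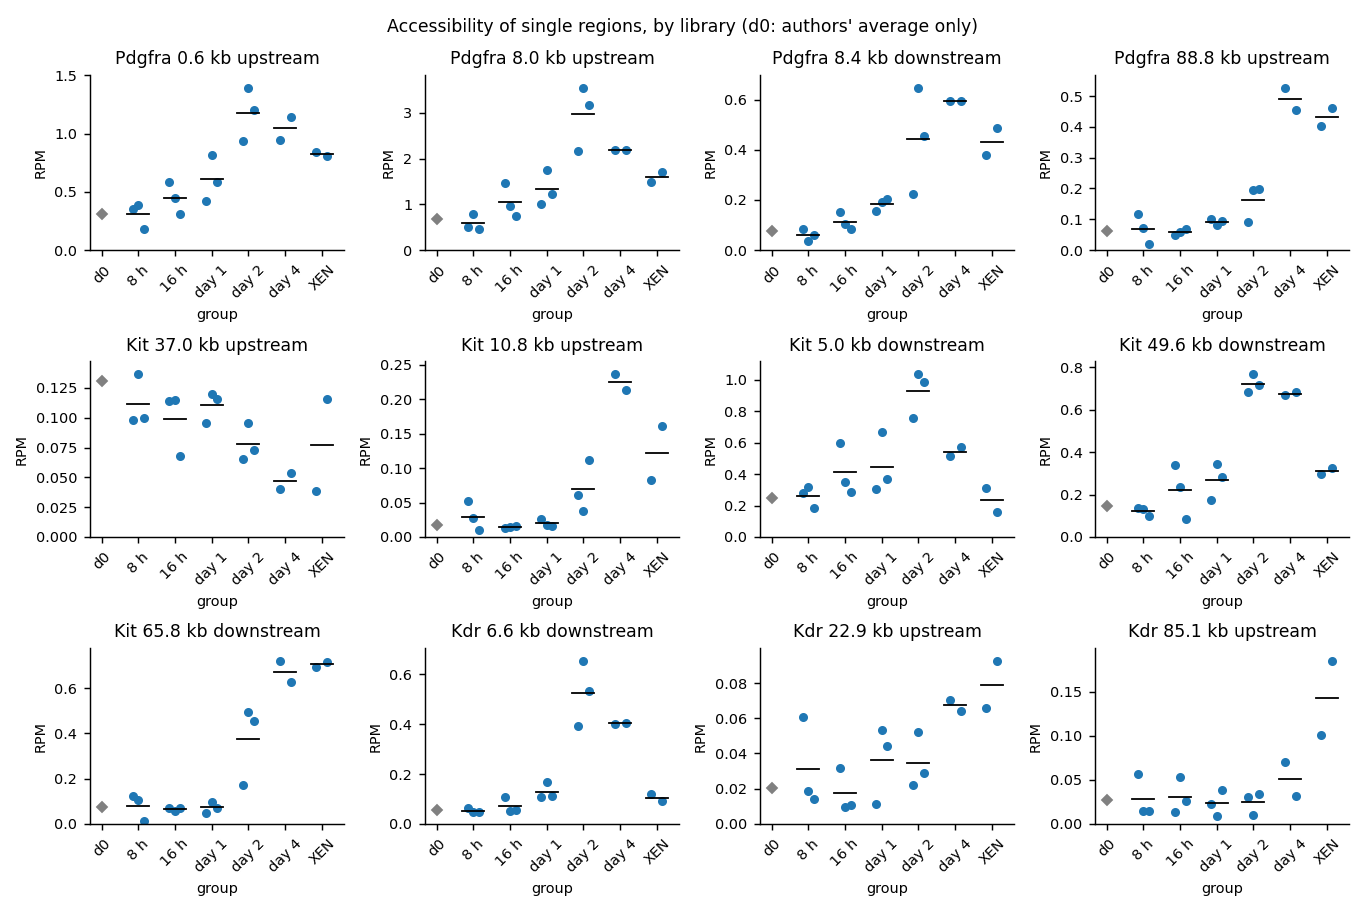
RPM of 12 of the singly described regions by group. Blue points are libraries, lines are their means and the grey diamond is the authors' d0 average. The regions 8.0 kb upstream of Pdgfra and 5.0 kb downstream of Kit are highest at day 2. In XEN cells, a separate line, that 65.8 kb downstream of Kit is high as well. That 6.6 kb downstream of Kdr is at 0.0923 and 0.118 RPM there, below day 4 and above 8 h, the latter without a call.

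Kit had regions that rose and regions that fell. The largest gain from d0 to day 4 on the scale of log2(RPM + 0.03) was that of the Late region 65.8 kb downstream (2.74, against 2.42 at the region 10.8 kb upstream), whereas without the pseudocount the fold was larger at 10.8 kb upstream (12.7, against 8.94). The region 65.8 kb downstream (chr5:75640402-75640968) lies in the gene and overlaps an exon, is SOX17-bound without PTF, and has no GATA6 match in the authors' scan although its 200-base window above holds a GATA core and 3 SOX cores. Its libraries were at 0.122, 0.103 and 0.0142 RPM at 8 h, 0.0497, 0.0977 and 0.0718 at day 1, 0.170, 0.495 and 0.455 at day 2, 0.719 and 0.625 at day 4 and 0.694 and 0.716 in XEN cells. Up to day 1 the libraries overlapped with those of 8 h, and from day 2 on they lay above. It rose by 1.94 ± 0.34 at day 2 (limma adjusted p = 9.7e-08), 2.86 ± 0.38 at day 4 (adjusted p = 5.8e-12) and 2.93 ± 0.38 in XEN cells (adjusted p = 2.2e-12).

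The region 49.6 kb downstream (chr5:75624226-75624855, intronic, Early&Constant, ectopic PTF) was the highest of Kit at day 4. The libraries were at 0.136, 0.132 and 0.0997 RPM at 8 h, 0.682, 0.767 and 0.717 at day 2, 0.668 and 0.684 at day 4 and 0.298 and 0.323 in XEN cells. It rose by 2.31 ± 0.35 at day 2 (limma adjusted p = 5.2e-10) and 2.22 ± 0.39 at day 4 (adjusted p = 1.9e-07), and by 1.17 in XEN cells (adjusted p = 0.0094, and 0.085 without XEN library 2). The libraries of XEN cells lay above those of 8 h and below those of day 4.

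The neighbouring Late region 48.2 kb downstream (chr5:75622923-75623383, overlapping an exon of Kit) was at 0.0375, 0.0188 and 0.0190 RPM at 8 h, 0.149, 0.171 and 0.242 at day 2, 0.231 and 0.273 at day 4 and 0.114 and 0.0462 in XEN cells. It rose by 1.97 ± 0.32 at day 2 (limma adjusted p = 5.0e-09) and 2.37 ± 0.35 at day 4 (adjusted p = 8.2e-10). In XEN cells it was 1.42 ± 0.39 lower than at day 4 on the log2 scale (change -1.42, adjusted p = 0.0037), a call lost without XEN library 2 (-0.96, adjusted p = 0.22) or day 4 library 2 (-1.32, adjusted p = 0.068). The rise in XEN cells over 8 h (0.95, adjusted p = 0.022) was lost without XEN library 1 (0.48, adjusted p = 0.42) and without 8 h library 2 or 3.

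Upstream of Kit, the Late region at 10.8 kb (chr5:75563841-75564293, intergenic, SOX17-bound, facultative heterochromatin in ES cells) was at 0.0516, 0.0282 and 0.00949 RPM at 8 h, 0.0612, 0.0381 and 0.111 at day 2, 0.236 and 0.214 at day 4 and 0.0832 and 0.162 in XEN cells. The day 2 libraries overlapped with those of 8 h, and both day 4 libraries lay above all others of the series. The change was 0.74 ± 0.30 at day 2 (limma adjusted p = 0.029, and 0.24 without 8 h library 3), and -0.04 with libraries centred on their median. At day 4 it was 2.15 ± 0.34 (adjusted p = 4.0e-09), and from day 2 to day 4 1.41 ± 0.34 (adjusted p = 0.0018, 0.065 without day 4 library 1, and 0.073 with each region's own spread). This region and that 88.8 kb upstream of Pdgfra were the only ones of the 32 called higher at day 4 than at day 2 (6.25%, against 2.41% of all recovered regions). The GATA6 binding of both had been classed as increased on Oct4 knockdown. That class held 5 of the 32 regions (15.6%, against 8.57% of all regions). Its other members lay 82.7 kb upstream of Pdgfra, 65.8 kb downstream of Kit and 56.4 kb upstream of Kit. The last of these was not called higher at day 4, with 0.369 RPM at d0 and 0.249 RPM at day 4 in the averages.

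The region nearest the Kit start, 5.0 kb downstream (chr5:75579488-75580405, intronic, Early&Constant, ectopic PTF, SOX17-bound, best GATA6 score 14.1), had the opposite class, a decrease of GATA6 binding on Oct4 knockdown. Single libraries had 0.277, 0.315 and 0.185 RPM at 8 h, 0.756, 1.03 and 0.988 at day 2, 0.513 and 0.572 at day 4 and 0.309 and 0.162 in XEN cells. It rose by 1.74 ± 0.35 at day 2 (limma adjusted p = 4.7e-06) and by 1.01 ± 0.39 at day 4 (adjusted p = 0.026, and 0.16 without day 4 library 2). In XEN cells the libraries overlapped with those of 8 h (change -0.15, adjusted p = 0.79). The difference of XEN cells from day 4 was -1.17 ± 0.43 (adjusted p = 0.041, and 0.44 without XEN library 2).

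Regions that lost accessibility were found near Kit at day 4. The Transient region 37.0 kb upstream (chr5:75537735-75538129, intergenic, PTF-bound at d0, an active enhancer by the marks of ES cells) was at 0.131 RPM at d0. Its libraries were at 0.0984, 0.136 and 0.0997 RPM at 8 h, 0.0656, 0.0953 and 0.0726 at day 2, 0.0402 and 0.0534 at day 4 and 0.0381 and 0.115 in XEN cells. The libraries of day 2 and day 4 lay below those of 8 h, and those of XEN cells overlapped. It fell by 0.88 on the log2 scale at day 4 (SE 0.36, limma adjusted p = 0.036), and changed by -1.40 with libraries centred (adjusted p = 3.5e-05). The call was lost without 8 h library 2 (adjusted p = 0.11) or either day 4 library (adjusted p = 0.22 and 0.091).

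The Transient region 25.2 kb downstream (chr5:75599774-75600491, intronic, PTF-bound at d0, active enhancer) was at 0.275, 0.252 and 0.315 RPM at day 2 and 0.136 and 0.0908 at day 4, a change of -1.13 ± 0.38 (limma adjusted p = 0.035). It was the only region of the 32 called lower at day 4 than at day 2 (against 8.94% of all recovered regions). Without any of the day 2 or day 4 libraries the call was lost (adjusted p from 0.061 to 0.36), and against 8 h it was not called (-0.67, adjusted p = 0.14). The other region that fell at day 4 lay 22.9 kb downstream and is Transient as well (-0.89, adjusted p = 0.045, 0.080 with each region's own spread, and 0.29 without 8 h library 2).

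The region of Kit with the highest RPM at d0, 56.4 kb upstream (chr5:75518119-75518813, Late, PTF-bound at d0), was the only one of the 32 in the accessible class at d0. Over libraries it was at 0.427, 0.531 and 0.294 RPM at 8 h, 0.310, 0.329 and 0.261 at day 2, 0.231 and 0.267 at day 4 and 0.343 and 0.369 in XEN cells. The day 4 libraries lay below those of 8 h, with a change of -0.65 ± 0.39 that did not pass the test (limma adjusted p = 0.16) but passed it with libraries centred on their median (-1.17, adjusted p = 3.9e-05). It is 1 of 4 regions not called against 8 h in any group, with 2 others near Kit and 1 near Kdr. The number of such regions among all recovered regions was not counted.

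Near Kdr, accessibility at the region 6.6 kb downstream (chr5:75971587-75972075, intronic, Early&Constant, ectopic PTF, SOX17-bound, facultative heterochromatin in ES cells) rose and then differed between day 4 and XEN cells. Its libraries were at 0.0656, 0.0470 and 0.0475 RPM at 8 h, 0.109, 0.0527 and 0.0575 at 16 h, 0.107, 0.169 and 0.110 at day 1, 0.393, 0.653 and 0.533 at day 2, 0.402 and 0.406 at day 4 and 0.118 and 0.0923 in XEN cells. From day 1 on every library lay above those of 8 h. The rise was 2.72 ± 0.34 at day 2 (limma adjusted p = 3.5e-14) and 2.39 ± 0.38 at day 4 (adjusted p = 6.6e-09). In XEN cells the change from 8 h was 0.70 and was not called (adjusted p = 0.13). XEN cells were lower than day 4 (change -1.69 ± 0.41, adjusted p = 0.0010), in each library, under each scaling, with the region's own spread (adjusted p = 0.012) and without any single library.

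The other regions near Kdr are Late, without SOX17 or PTF, and lie upstream of the gene. That at 22.9 kb (chr5:76001077-76001581) was at 0.0609, 0.0188 and 0.0142 RPM at 8 h, 0.0703 and 0.0641 at day 4 and 0.0659 and 0.0923 in XEN cells. Its rise at day 4 (0.74 ± 0.32, limma adjusted p = 0.045) was lost without any of 7 libraries, with an adjusted p of up to 0.20, and its rise in XEN cells (0.90, adjusted p = 0.016) without any of 3, with an adjusted p of 0.16 without XEN library 2. That at 85.1 kb (chr5:76063318-76063710, nearest protein-coding start Srd5a3) lay between 0.00888 and 0.0563 RPM in the libraries of 8 h to day 2, at 0.0703 and 0.0321 RPM at day 4 and at 0.101 and 0.185 RPM in XEN cells. It rose in XEN cells over 8 h by 1.60 ± 0.32 (adjusted p = 6.6e-06) and over day 4 by 1.09 (adjusted p = 0.016, and 0.29 without XEN library 2). That at 88.7 kb was not called in any comparison with 8 h.

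XEN cells and day 4 cells were compared across all 32 regions. In XEN cells 2 regions were higher (6.25%, against 6.17% of all recovered regions), those 79.0 kb upstream of Pdgfra and 85.1 kb upstream of Kdr, and 5 were lower (15.6%, against 12.1%). Of these 5, 3 lay near Kit, 1 near Pdgfra and 1 near Kdr, with changes between -1.69 and -1.17. The shares called are close to those of the whole table. Leaving out single libraries, the change was -1.58 to -0.75 at the region 5.0 kb downstream of Kit and -1.88 to -0.96 at that 48.2 kb downstream. It was -1.83 to -1.55 at that 6.6 kb downstream of Kdr and 0.73 to 1.44 at that 85.1 kb upstream. A fit without 1 day 4 or XEN library leaves 1 library in that group. In such fits fewer regions were called lower, among the 32 and over all recovered regions.

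Regions near other genes of the same families and their ligands were counted by the same window. Near the receptors Pdgfrb, Csf1r, Flt3, Flt1 and Flt4 there were 24 regions, with a median change of 0.64 from d0 to day 4, 5 more than 2-fold higher and 0 more than 2-fold lower. Reads were recovered at 16 of them, of which 5 rose and 1 fell at day 4 (limma). Near 13 ligand genes there were 66 regions, with a median change of 0.52, 21 more than 2-fold higher and 4 lower, and of 39 with recovered reads 18 rose and 3 fell. Over the whole table the median change was 0.52, and 31% of regions were more than 2-fold higher at day 4. Of all recovered regions 37.1% rose and 8.76% fell at day 4. The counts near these genes were not tested against those shares. Near Kitl, which encodes stem cell factor, the ligand of KIT, 6 of 13 regions rose and 0 fell at day 4. Near Vegfa, which encodes a ligand of KDR, 6 of 7 regions were more than 2-fold higher in the averages (median change 2.08), without recovered reads and so without a test. Near Pdgfa, which encodes a ligand of PDGFRA, 1 of 5 regions rose and 1 fell. Near Pdgfc, which encodes another ligand of PDGFRA, 2 of 4 regions were more than 2-fold lower and 0 higher in the averages (median change -1.23), without recovered reads. Near Vegfc, which encodes a ligand of the VEGF receptors, 2 of 3 regions fell and 1 rose at day 4 (median change from d0 -0.85).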

How the data were processed

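ATAC-seq was carried out by the authors on 20 samples. Per the labels and the methods of the study, reads were demultiplexed with bcl2fastq, trimmed with cutadapt and aligned to mm10 with Bowtie2, duplicates were removed with SAMtools, read ends were shifted for Tn5, and short fragments were counted in each GATA6 peak. The deposited RPM values are averages of the libraries of a group, with 1 read apparently added per region and library. The deposited motif scores are FIMO scores of the best match in a region. The table holds 105 columns, of which 7 of ATAC-seq were used, and 52 columns of other samples were not used.

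Whole reads of single libraries were recovered at the 24782 regions given with full digits, by finding the steps that make up each average. The recovery was tested on simulated data. It gave 16 libraries, 2 of them in XEN cells although 3 samples are labelled, and none for d0. Which library is which sample is not known. The planned baseline of d0 was therefore replaced by 8 h in tests.

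Changes were tested with limma 3.58.1 (R 4.3.3, eBayes with trend) on log2(RPM + 0.03) of the recovered values of all groups together, with Benjamini-Hochberg adjustment over 24782 regions and a threshold of 0.05. The fit had 10 residual degrees of freedom, and its prior was so strong that regions of like level shared a single spread. Alternatives were other pseudocounts (0.006 and 0.15 RPM), scalings, windows (50 and 200 kb), a filter of 0.1 RPM, library weights and leaving out each library. After the data were seen, 2 were added: each region's own spread, and the added read subtracted.

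Regions described singly were, for each gene, the nearest to the start, the highest at d0 and at day 4, the 3 largest gains and the 2 largest losses from d0 to day 4, and any in the promoter. Others are given by ranges and counts unless said to have been chosen after their values were seen. The genes, regions and lists were chosen with earlier results of these data known. Gene positions are those of GENCODE vM21.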

Additional observations from a re-analysis of the deposited data

How the results depend on the processing

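No paired analysis was possible because the averaged columns carry no replicate numbers, so that no recovered library can be tied to a number. Depth limits low regions most in XEN library 2 (43.3 M reads), and d0 has no error. In XEN library 2 the region 79.0 kb upstream of Pdgfra had 4 reads and that 48.2 kb downstream of Kit 2. These reads include the added read. Of 987 values of single regions under the alternatives, 906 kept direction and call, 80 kept direction only, and 1 reversed, the region 10.8 kb upstream of Kit at day 2 (-0.041 with libraries centred on their median). The causes of these shifts were not tested.

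Among the averages of the Pdgfra, Kit and Kdr regions, the number more than 2-fold above d0 at day 2 (19) was 12 with a pseudocount of 0.15 RPM, 8 with columns centred, 4 after quantile normalisation and 34 in windows of 200 kb, and the number below (0) was 5 centred and 4 by quantiles. At day 4 the number above (16) was 10, 8 and 30 for the last 3 of these settings, and the number below (1) was 2 with 0.006 RPM, 0 with 0.15 RPM or the filter of 0.1 RPM, and 4 centred or by quantiles. In XEN cells the number above (11) was 5 with 0.15 RPM, 6 centred, 7 by quantiles, 5 within 50 kb, 21 within 200 kb and 6 with the filter, and the number below (0) was 1 centred or by quantiles. Pseudocounts, centring and quantiles act on all regions, and counts over the whole table under these settings are not given here.

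In the limma fits against 8 h, the higher calls at 16 h (0) were 2 centred and 4 by quantiles, and the lower calls (0) 1 by quantiles. The higher calls at day 1 (6) were 2 with 0.15 RPM, 13 with library weights and 0 with each region's own spread, and the lower calls (0) 1 by quantiles. The lower calls at day 2 (1) were 9 centred, 4 by quantiles, 2 with weights, and 0 with a change above 1, the filter or own spread. The lower calls at day 4 (2) were 4 centred, by quantiles or with weights, 0 with a change above 1, and 1 with the filter or own spread. The higher calls in XEN cells (14) were 9 centred or with own spread and 7 with the filter, and the lower calls (0) 4 centred and 1 by quantiles. With the added read subtracted, XEN cells had 11 higher and 0 lower calls. Over all 24782 recovered regions that setting gave 6678 higher and 2970 lower, against 7509 and 2459 in the main fit. From day 2 to day 4 the higher calls (2) were 5 with 0.15 RPM, by quantiles or with weights, 8 centred, 1 with the filter and 0 with own spread, and the lower calls (1) were 2 centred, 9 with weights and 0 by quantiles or with own spread. In XEN cells against day 4 the higher calls (2) were 1 with 0.006 RPM or own spread, 4 by quantiles and 0 with the filter, and the lower calls (5) were 8 centred, 3 with the filter and 9 with weights. Calls over all 24782 recovered regions moved with these settings as well. Higher calls at 16 h (1) were 220 centred and 439 by quantiles. Higher calls at day 1 (1405) were 711 with 0.15 RPM, 3729 with weights and 18 with own spread. Lower calls at day 2 (755) were 7134 centred, 5572 by quantiles and 538 with own spread. Lower calls at day 4 (2171) were 6164 centred, 6296 by quantiles and 1576 with own spread.

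Each library was left out in turn, counted where at least 2 libraries remained in both groups compared. Higher calls were then 0 to 8 at day 1, 17 to 19 at day 2 (0 to 1 lower), 17 to 21 at day 4 (0 to 2 lower) and 9 to 14 in XEN cells. Over all 24782 recovered regions they were 143 to 2269, 9262 to 12386, 7128 to 9660 and 5743 to 7772. Among the 32, 2 to 3 were higher and 0 to 1 lower from day 2 to day 4, and 2 higher and 4 to 6 lower in XEN cells against day 4. Where 1 library remained at day 4 or in XEN cells, that group had fewer higher calls against 8 h than in the main fit.

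The fold of the sum at day 4 over d0 was 2.79 near Pdgfra and 1.68 as a share of the column total. Near Kit it was 2.07, with 1.25 as a share, 1.87 within 50 kb and 2.81 within 200 kb. Near Kdr it was 4.03, with 2.43 as a share, 6.36 within 50 kb and 5.19 within 200 kb. Near the other receptor and ligand genes, the number of regions more than 2-fold higher at day 4 (26) was 15 with 0.15 RPM, 13 centred and 14 within 50 kb.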
